A study of Mus musculus with 6 samples.

Results

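Genes that mark Schwann cells and their myelin were examined in the developing furcation of the mouse mandibular first molar, the tissue floor between the future roots. The set holds 8 named genes, Sox10, S100b, Erbb3, Mbp, Mag, Prx, Pmp22 and Gap43, out of 23594 genes in the count table. They were taken by name, and all 8 were among the 20114 genes that passed the filter on low counts.

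Schwann cells are the glia of peripheral nerves. They arise from neural crest under the transcription factor Sox10 and depend on neuregulin, which axons present to the receptor pair Erbb2 and Erbb3. Some of them wrap large axons in compact myelin, whose proteins include Mbp and Pmp22, while others ensheathe small axons without myelin and keep Gap43 and Ngfr. Nerve bundles carrying such cells enter the tooth from its apical end, beside the region studied here.

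The series compared 3 control with 3 Lhx6-/- RNA libraries, all from C57BL/6 mice at postnatal day 4.5. Controls are labelled wild type, and the mutants, described by the study as littermates, carry both copies of Lhx6, which encodes a LIM homeobox factor, as the Lhx6-CreER knock-in allele that abolishes its function in the whole animal. For each library the study cut the apical part of the furcation by laser from sections and pooled tissue of 8 first molars, so a library is a pool and not a single animal. The libraries held 60132323 to 76157433 estimated counts, and values below are in CPM, counts relative to the library total, after TMM scaling for differences in library make-up. Values in each group are given in the order of replicates 1, 2 and 3. For Lhx6 itself the controls had 27.8, 18.2 and 21.9 CPM and the mutants 12.8, 9.82 and 10.5 CPM. The groups did not overlap, and the edgeR quasi-likelihood test gave a log2 fold change of -1.04 (SE 0.16, adjusted p = 0.021), so the labels held, although reads of the gene remained in the mutants. The female transcript Xist was at 411 to 792 CPM in the controls but at 290, 0.228 and 0.0537 CPM in Lhx6-/- replicates 1, 2 and 3. The Y-linked Kdm5d was at 4.76, 11.5 and 3.55 CPM in controls and at 14.1, 21.7 and 19.8 CPM in mutants. The mix of sexes thus differed along with genotype, and the 2 cannot be fully told apart in these pools. The part of sex in the results was not tested. Nothing in the labels says that replicates are separate litters, so p-values measure the spread between these pools.

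The tissue carried the markers of myelinating Schwann cells clearly. The mean level over the 6 libraries, in CPM per kilobase of exon, was 54.5 for Pmp22, 14.5 for S100b, 11.4 for Mbp, 6.04 for Prx, 5.54 for Gap43, 3.18 for Sox10, 1.47 for Erbb3 and 0.967 for Mag. Pmp22 (38.1 to 72.3 across libraries) stood above S100b (13.4 to 15.9) without overlap. Mbp (5.78 to 15.7) overlapped S100b above it and Prx (3.99 to 8.25) below it. Prx and Gap43 (4.70 to 7.07) overlapped throughout, Gap43 and Sox10 (2.26 to 4.88) overlapped at the edge, Sox10 and Erbb3 (0.991 to 1.89) did not overlap, and Erbb3 and Mag (0.533 to 1.30) did. This order depends on the length used, which counts all annotated exons of a gene. Without division by length, Mbp averaged 96.2 CPM and S100b 21.5 CPM. Mog, a gene of central myelin, was not analysed here. Gfap, listed here with central glia but not exclusive to them, averaged 0.897 CPM in controls and 0.794 CPM in Lhx6-/- tissue. In mm10, the build of the files, Sox10 lies at chr15:79154908-79165240, S100b at chr10:76253853-76261159, Erbb3 at chr10:128567523-128589652, Mbp at chr18:82475146-82585637, Mag at chr7:30899176-30914873, Prx at chr7:27497388-27520214, Pmp22 at chr11:63128982-63159547 and Gap43 at chr16:42248442-42340651, so no 2 of them are neighbours. Several members are not exclusive to Schwann cells: S100b is also made by cartilage cells, Pmp22 by many fibroblasts and epithelia, and Gap43 by growing axons. In bulk tissue, fewer cells of a type and less RNA per cell cannot be told apart.

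**Figure D1:**
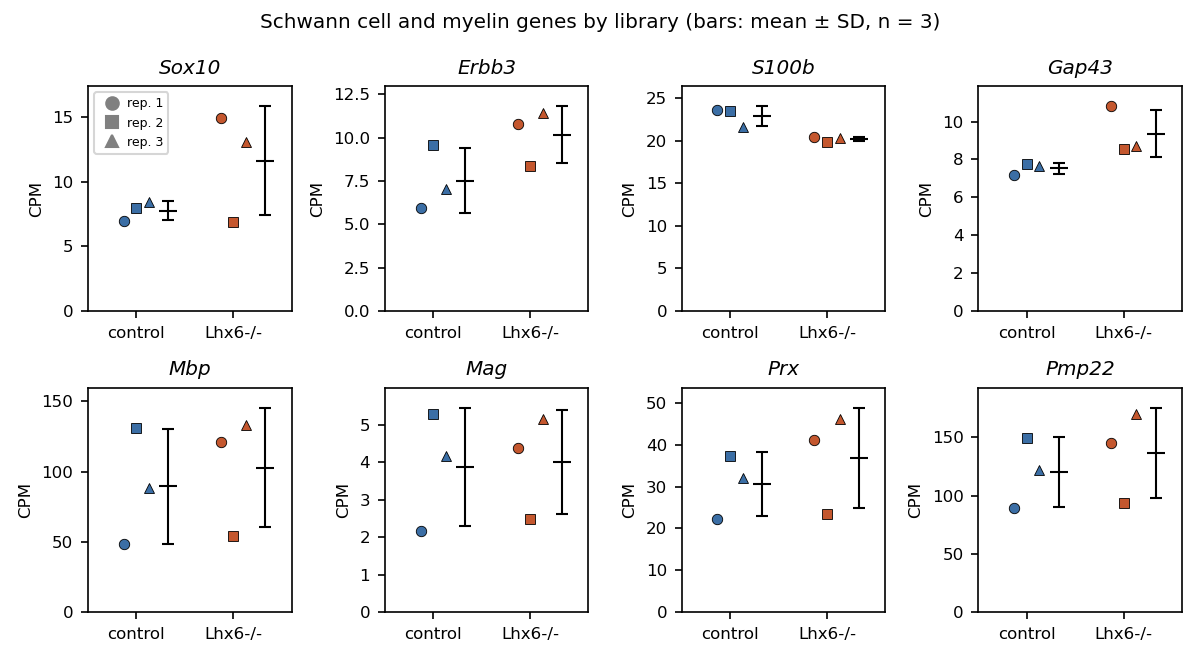
Level of each of the 8 genes in CPM (vertical axes, starting at 0) in the 3 control libraries (blue) and the 3 Lhx6-/- libraries (orange). Marker shape gives the replicate number, and the bars beside the points show the mean ± SD (n = 3). The 4 myelin genes of the lower row are low in control replicate 1 and Lhx6-/- replicate 2, while Gap43 and S100b separate the groups in opposite directions.

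The question put to the 8 genes was whether they differ between control and Lhx6-/- tissue. A gene was called changed when it reached a 1.5-fold difference and its unadjusted p was below 0.05, the thresholds the study states, and p-values adjusted over all genes tested are given beside it. None of the 8 was called, higher or lower, where 1.58% of all genes tested were called higher in Lhx6-/- tissue and 1.71% lower. None reached an adjusted p under 0.05 in edgeR, a mark that 0.403% of all genes passed, and neither DESeq2 nor limma gave any of them such a value. At an unadjusted p under 0.05 there were 3 members higher, Sox10, Erbb3 and Gap43, against 4.75% of all genes, and 0 lower, against 5.07%. The groups did not overlap for 1 member higher in Lhx6-/- tissue, Gap43, against 7.86% of all genes, and for 1 member lower, S100b, against 7.68%. The median log2 fold change of the members was 0.24, beside -0.0019 over all genes tested.

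Sox10, the transcription factor that specifies and maintains the Schwann lineage, had 6.94, 7.95 and 8.40 CPM in the controls against 14.9, 6.90 and 13.1 CPM in the mutants. Lhx6-/- replicates 1 and 3 lay well above every control, whereas Lhx6-/- replicate 2 lay just below the lowest control. The means were 7.76 ± 0.748 and 11.6 ± 4.19 CPM (SD, n = 3), a 1.496-fold difference that fell just short of the 1.5-fold mark. In the edgeR quasi-likelihood test the log2 fold change was 0.58 (SE 0.25, 95% interval 0.01 to 1.15, adjusted p = 0.495). Single libraries decided this value. Without Lhx6-/- replicate 2 the log2 fold change was 0.85 (edgeR adjusted p = 0.0879) and the gene met the call, while without Lhx6-/- replicate 1 it was 0.37 (edgeR adjusted p = 0.843). The unadjusted p was also over 0.05 without any of the control libraries (log2 fold change 0.51 to 0.64) and without Lhx6-/- replicate 3 (0.49).

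Erbb3, the receptor through which neuregulin acts on Schwann cells, was at 5.96, 9.59 and 7.03 CPM in controls and at 10.8, 8.34 and 11.4 CPM in Lhx6-/- libraries. The same Lhx6-/- replicate 2 was the lowest mutant, and control replicate 2 lay above it, so the groups overlapped. The log2 fold change was 0.43 (SE 0.18, 95% interval 0.03 to 0.84, edgeR adjusted p = 0.479). Without control replicate 2 it was 0.65 (edgeR adjusted p = 0.224) and met the call, and it was 0.29 and 0.39 without control replicate 1 or 3 and 0.39 and 0.34 without Lhx6-/- replicate 1 or 3, all with an unadjusted p over 0.05. The partner receptor Erbb2, which many cell types express, was at 30.4, 30.0 and 28.4 CPM in controls and at 36.6, 32.3 and 33.4 CPM in mutants, a log2 fold change of 0.20 (edgeR adjusted p = 0.431). The groups did not overlap for Erbb2, but its unadjusted p was over 0.05 without Lhx6-/- replicate 1 (log2 fold change 0.15) or control replicate 3 (0.18). The ligand gene Nrg1 was near the limit of detection in this tissue, at 0.180 to 0.819 CPM in controls and 0.344 to 0.605 CPM in mutants. Its log2 fold change of -0.21 had a 95% interval from -1.54 to 1.12.

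Gap43, a growth-associated protein of axon growth cones and of immature and non-myelinating Schwann cells, was at 7.17, 7.77 and 7.63 CPM in controls and at 10.8, 8.57 and 8.72 CPM in Lhx6-/- libraries. All mutants lay above all controls, with Lhx6-/- replicate 1 the highest. The log2 fold change was 0.31 (SE 0.14, 95% interval 0.02 to 0.61, edgeR adjusted p = 0.488), and without Lhx6-/- replicate 1 it was 0.20 (edgeR adjusted p = 0.858). Without control replicate 1 or 3 (0.28 and 0.32) its unadjusted p was also over 0.05.

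S100b, a calcium-binding protein widely used to stain Schwann cells, showed the smallest spread of the set. It was at 23.6, 23.5 and 21.6 CPM in controls and at 20.4, 19.9 and 20.3 CPM in mutants. Every mutant lay below every control, by a log2 fold change of -0.18 (SE 0.08, 95% interval -0.36 to 0.01, edgeR adjusted p = 0.53). Among all alternatives, the unadjusted p was below 0.05 only without control replicate 3 (log2 fold change -0.22, edgeR adjusted p = 0.631).

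The 4 myelin genes of the set showed another picture. Their levels differed 1.67-fold to 2.68-fold between libraries of the same genotype, and the low libraries were the same for all of them. Mbp, the basic protein that holds the cytoplasmic faces of myelin together, was at 48.9, 131 and 88.5 CPM in controls and at 121, 54.4 and 133 CPM in Lhx6-/- libraries. Control replicate 1 and Lhx6-/- replicate 2 were far below the other four. Mag, an adhesion protein of the myelin layer next to the axon, was at 2.17, 5.28 and 4.16 CPM in controls and at 4.39, 2.48 and 5.15 CPM in mutants. Prx (periaxin), a scaffold that ties the myelinating Schwann cell to its basal lamina, was at 22.3, 37.3 and 32.0 CPM in controls and at 41.1, 23.4 and 46.0 CPM in mutants. Pmp22, a membrane protein of compact peripheral myelin, was at 89.6, 149 and 122 CPM in controls and at 145, 94.0 and 170 CPM in mutants. For each of these genes the ranges of the genotypes overlapped almost fully, with control replicate 1 the lowest of the 6 libraries and Lhx6-/- replicate 2 the next lowest.

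Against that spread, no difference between genotypes could be detected for the myelin genes. The log2 fold changes were 0.20 for Mbp (95% interval -1.28 to 1.68, edgeR adjusted p = 0.954), 0.05 for Mag (-0.73 to 0.83, edgeR adjusted p = 0.983), 0.27 for Prx (-0.55 to 1.09, edgeR adjusted p = 0.877) and 0.18 for Pmp22 (-0.58 to 0.94, edgeR adjusted p = 0.917). These intervals are wide: they include a 1.5-fold change upward for all 4 genes. Without control replicate 1 the value was -0.09 for Mbp and -0.24 for Mag, and without Lhx6-/- replicate 3 it was -0.03, -0.17 and -0.01 for Mbp, Mag and Pmp22. Mag was also at -0.02 without Lhx6-/- replicate 1, so the sign for these genes depended on single pools. Prx alone of the 4 passed an unadjusted threshold when a library was left out, without Lhx6-/- replicate 2 (log2 fold change 0.51, edgeR adjusted p = 0.674). The exons of Prx overlap those of Gm15541 on the opposite strand, and whether the counting used strand is not given in the sources used here, so its level may include reads of that transcript.

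**Figure D2:**
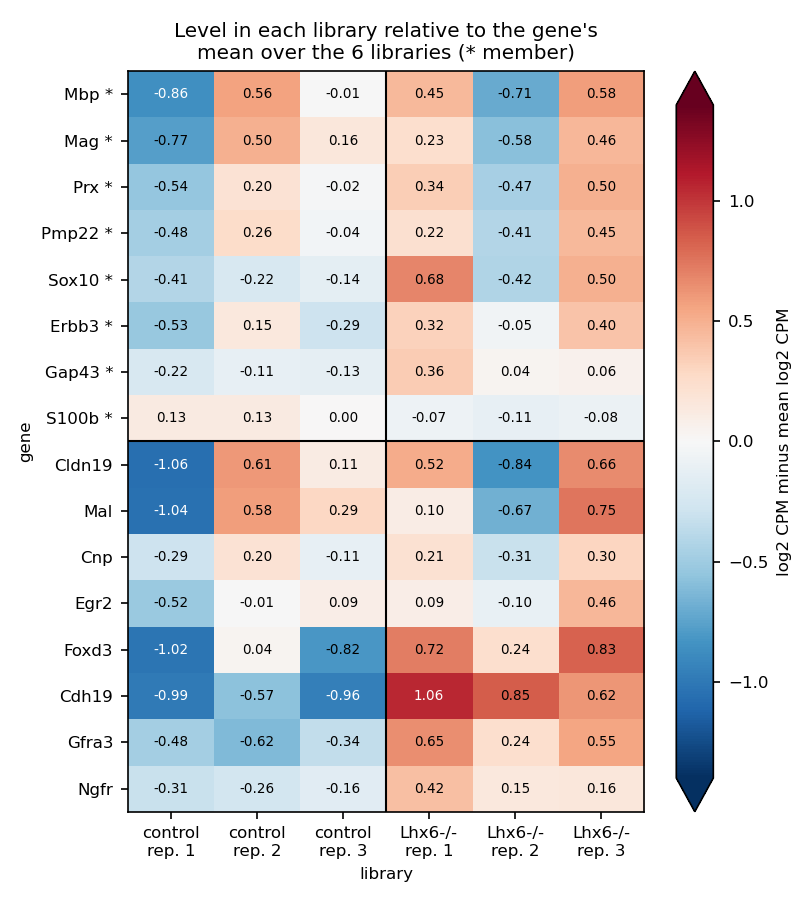
Difference of log2 CPM in each library (columns) from the gene's mean over the 6 libraries, for the 8 members (marked with an asterisk, above the line) and 8 other Schwann lineage and myelin genes. Mbp, Mag, Prx, Pmp22, Cldn19 and Mal are blue in control replicate 1 and Lhx6-/- replicate 2, whereas Cdh19, Gfra3 and Ngfr are blue in all controls and red in all mutants.

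Because Mag, Prx and Pmp22 moved together across the libraries and S100b did not, the 250 bases before their transcription start sites are shown. They were taken from the RefSeq promoter table for GRCm38.p6, and windows of 4 of the 8 members were searched. Mbp was left out of this search, and its window is not reported here. The table lists 3 start sites for Mag, 4 for Pmp22 and 1 each for Prx and S100b, and for each gene the window of the start nearest to the gene start in the count table was the one searched. The windows were searched on both strands for the SOX words ACAAAG and ACAATG, the EGR word GCGNGGGCG and the TATA word TATAAA, and capitals mark a match.
Mag, chr7:30914864-30915113, minus strand: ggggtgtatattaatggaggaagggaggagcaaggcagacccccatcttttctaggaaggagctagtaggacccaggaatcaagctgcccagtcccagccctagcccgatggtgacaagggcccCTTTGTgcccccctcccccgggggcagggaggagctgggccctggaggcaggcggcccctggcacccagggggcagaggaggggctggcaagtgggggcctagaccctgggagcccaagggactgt
Prx, chr7:27499074-27499323, plus strand: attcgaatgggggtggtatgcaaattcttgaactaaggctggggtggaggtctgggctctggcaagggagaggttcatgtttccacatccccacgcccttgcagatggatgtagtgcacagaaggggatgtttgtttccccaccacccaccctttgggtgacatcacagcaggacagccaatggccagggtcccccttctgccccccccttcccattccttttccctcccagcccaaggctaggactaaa
Pmp22, chr11:63128732-63128981, plus strand: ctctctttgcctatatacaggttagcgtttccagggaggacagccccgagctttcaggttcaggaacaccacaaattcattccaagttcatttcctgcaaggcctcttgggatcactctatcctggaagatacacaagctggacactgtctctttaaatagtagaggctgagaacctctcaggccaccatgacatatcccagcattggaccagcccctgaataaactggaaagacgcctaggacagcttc
S100b, chr10:76253586-76253835, plus strand: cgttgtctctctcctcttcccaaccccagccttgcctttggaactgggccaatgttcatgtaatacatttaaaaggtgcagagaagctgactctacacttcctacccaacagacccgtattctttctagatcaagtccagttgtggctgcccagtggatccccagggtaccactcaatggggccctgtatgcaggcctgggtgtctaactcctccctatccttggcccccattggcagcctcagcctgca
The single match was ACAAAG, read on the minus strand as CTTTGT, 126 bases before this Mag start. SOX words occur in 25.2% of the 32851 RefSeq promoter windows, EGR words in 4.7% and TATAAA in 12.4%. GC content was 66.0% for Mag, 56.4% for Prx, 48.8% for Pmp22 and 53.6% for S100b. The Prx start in RefSeq lies 1936 bases from the gene start in the count table, and its window belongs to the RefSeq start.

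The shared movement of the myelin genes was measured as the relation of each other member to Mbp over the 6 libraries, in log2 CPM. Pearson's r with Mbp was 0.99 for Pmp22, 0.98 for Mag and 0.98 for Prx, with exact permutation p-values of 0.00139, 0.00278 and 0.00694 (0.00973, 0.00973 and 0.0162 after Benjamini-Hochberg adjustment over the 7 relations). Spearman's rho was 1.0, 0.94 and 0.94, with exact permutation p = 0.00278, 0.0167 and 0.0167 (adjusted 0.0195, 0.039 and 0.039). Without the 2 libraries farthest from the median of Mbp, control replicate 1 and Lhx6-/- replicate 2, r was 0.93, 0.84 and 0.84 over the remaining 4. For Erbb3 r was 0.81 and rho 0.89 (exact permutation p = 0.0611 and 0.0333, adjusted 0.107 and 0.0583), and r was 0.92 without those libraries. For Sox10 r was 0.73 and rho 0.66 (exact permutation p = 0.1 and 0.175, adjusted 0.14 and 0.245), and r was 0.40 without them. Gap43 (r = 0.46, rho = 0.60, exact permutation p = 0.362 and 0.242, adjusted 0.422 and 0.282) and S100b (r = -0.14, rho = -0.26, exact permutation p = 0.707 and 0.658, adjusted 0.707 and 0.658) showed no relation that passed the test. Their r without the same libraries was 0.35 and -0.01. Each genotype has only 3 libraries, too few for a relation within it.

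The relation reached well beyond the set. Of the 15120 other genes with a mean of at least 1 CPM, 84 had r of at least 0.9 with Mbp, and 12 of these were among the 25 such genes of a list of myelin and myelin assembly genes. They include the tight junction protein Cldn19 of Schwann cells, at 5.04, 16.1 and 11.4 CPM in controls and 15.2, 5.87 and 16.7 CPM in mutants. The myelin proteolipid Mal was at 5.06, 15.6 and 12.7 CPM in controls and 11.2, 6.54 and 17.6 CPM in mutants. Both were lowest in control replicate 1 and next lowest in Lhx6-/- replicate 2, as the 4 myelin members were. Of 25 such genes of the Schwann lineage list 2 reached it. In lists for neurons (12 such genes), oligodendrocytes (4), melanocytes (4), perineurium (11) and chondrocytes (10), 0 genes reached r of 0.9 with Mbp. The same held for endothelium (15), dental epithelium (15), dental mesenchyme (15), muscle (12) and immune cells (12). With 84 of 15120 genes reaching it, 0 in lists this short is near the share over all genes. Dcn of dental mesenchyme (0.87) and Col9a3 of cartilage (0.86) came close. Control replicate 1 held 62315646 estimated counts and Lhx6-/- replicate 2 held 71394061, both within the range of the other libraries. The TMM factor of Lhx6-/- replicate 2 was 1.044, the farthest from 1, and that of control replicate 1 was 0.9992. The counts used were 79.96% of the total behind the deposited group means in Lhx6-/- replicate 2, the lowest share, and 83.41% in control replicate 1. A technical part in the low values was not tested. The summed level of the 28 myelin genes ran from 747 to 1040 CPM in controls and from 763 to 1100 CPM in mutants.

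**Figure D3:**
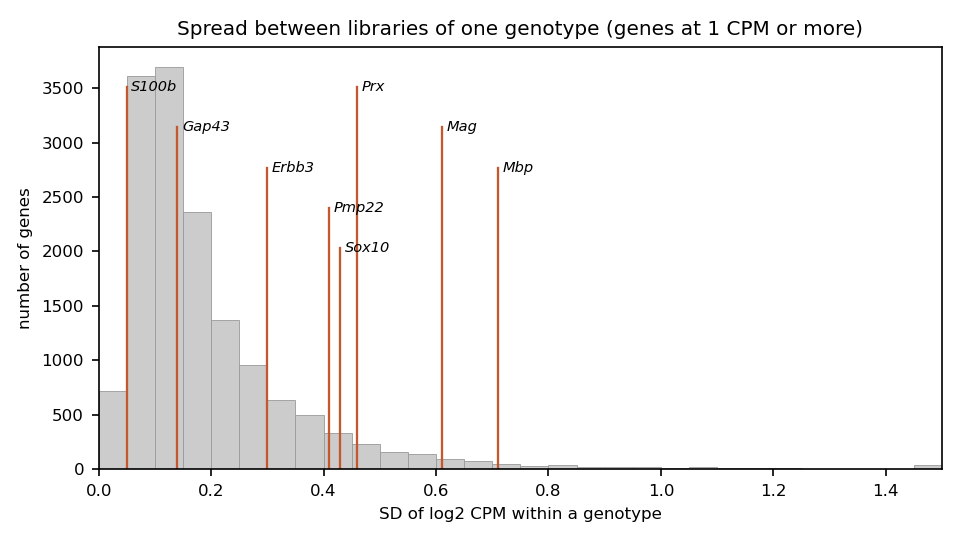
Histogram of the SD of log2 CPM between libraries of the same genotype for genes with a mean of at least 1 CPM (horizontal axis, SD; vertical axis, number of genes; the last bar holds all genes from 1.45 upward). Orange lines mark the 8 members, and their heights differ only to keep the names apart. Mbp (SD 0.71) and Mag (0.61) lie far in the tail, and S100b (0.05) lies below most genes.

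Most members varied more between libraries of the same genotype than the bulk of the transcriptome did. The SD of log2 CPM within genotypes was 0.71 for Mbp, larger than in 98.4% of the 15121 genes with a mean of at least 1 CPM, whose median SD was 0.14. It was 0.61 for Mag (larger than in 97.3% of genes), 0.46 for Prx (94.1%), 0.43 for Sox10 (93.0%), 0.41 for Pmp22 (91.9%) and 0.30 for Erbb3 (83.9%). Gap43, with an SD of 0.14, was near the middle (47.6%), and S100b, with 0.05, was among the steadiest genes (5.76%).

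The genes whose pattern across libraries was most like that of Sox10 came from outside the gene lists used here. The 5 highest Pearson correlations with Sox10 in log2 CPM over the 6 libraries were 0.977 for Prkx, 0.976 for Nfya, 0.971 for Sertad2, 0.967 for D330023K18Rik and 0.958 for Epha2, and 53 of 15120 genes reached 0.9. Among the members, Prx (0.85) and Gap43 (0.80) were closest to Sox10, and Mag (0.64) and S100b (-0.51) were farthest from it. These values describe only 6 points that share the same pools.

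The wider Schwann lineage was described with a list of 27 genes, mainly transcription factors, receptors and adhesion genes, 4 of them members. All 27 were tested, and 20 were higher and 7 lower in Lhx6-/- tissue. Their median log2 fold change was 0.29. There were 3 called, all higher, Foxd3, Cdh19 and Gfra3, and 10 had an unadjusted edgeR p under 0.05, all higher: Sox10, Foxd3, Erbb2, Erbb3, Ngfr, Ncam1, Cdh19, Fabp7, Gfra3 and Gap43. The groups did not overlap for 8 higher genes and 1 lower gene, S100b. Over all genes tested, 1.58% were called higher, 4.75% were higher at that p, and 7.86% were higher and 7.68% lower without overlap. Without control replicate 2 the count called in this list was 5.

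Cdh19, a cadherin characteristic of Schwann cell precursors and Schwann cells, had the largest difference of this list. It was at 0.562, 0.763 and 0.575 CPM in controls (35, 51 and 34 rounded counts) and at 2.42, 2.09 and 1.79 CPM in mutants (148, 156 and 133). Every mutant, Lhx6-/- replicate 2 included, was above every control, and the log2 fold change was 1.72 (SE 0.31, 95% interval 1.05 to 2.40, edgeR adjusted p = 0.0377). In edgeR and limma-trend it was the single gene of the list with an adjusted p under 0.05. DESeq2 gave such a value to 4 of the list, Cdh19 (DESeq2 adjusted p = 0.000194), Ngfr (0.00704), Ncam1 (0.0144) and Gfra3 (0.0157), and limma voom to 0. Cdh19 was called under all 16 alternatives, with log2 fold changes from 1.61 to 1.88 and adjusted p from 0.000194 to 0.2. That adjusted p was over 0.05 with each library left out, between 0.0528 without control replicate 2 and 0.2 without Lhx6-/- replicate 1.

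Foxd3, a neural crest factor kept in Schwann cell precursors, was at 0.819, 1.74 and 0.947 CPM in controls and at 2.80, 2.0 and 3.04 CPM in mutants (log2 fold change 1.16, SE 0.33, edgeR adjusted p = 0.233). Gfra3, a receptor for the neurotrophic factor artemin, was at 1.67, 1.51 and 1.84 CPM in controls and at 3.68, 2.77 and 3.44 CPM in mutants (log2 fold change 0.98, SE 0.23, edgeR adjusted p = 0.139). Both were called under all 16 alternatives and separated the groups in every library. Ngfr, the low-affinity neurotrophin receptor of immature and non-myelinating Schwann cells that some mesenchymal cells also carry, was at 13.7, 14.2 and 15.2 CPM in controls and at 22.8, 18.9 and 19.0 CPM in mutants. Its log2 fold change of 0.49 (SE 0.10, edgeR adjusted p = 0.0911) was under the 1.5-fold mark. The adhesion molecule Ncam1, present in many cells of the dental mesenchyme, was at 127 to 145 CPM in controls and 165 to 188 CPM in mutants (log2 fold change 0.32, edgeR adjusted p = 0.16). Fabp7, a lipid-binding protein of glial precursors, was at 2.17 to 2.67 CPM in controls and 3.30 to 3.51 CPM in mutants (log2 fold change 0.46, edgeR adjusted p = 0.493). Without control replicate 2, its log2 fold change was 0.37 (edgeR adjusted p = 0.703), and the unadjusted p was over 0.05 also without control replicate 1 or any of the mutants.

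Egr2, the factor that switches on the myelin program and stands in the same list, did not pass the test. It was at 2.59, 3.70 and 3.96 CPM in controls and at 3.96, 3.46 and 5.13 CPM in mutants (log2 fold change 0.29, 95% interval -0.20 to 0.79, edgeR adjusted p = 0.752).

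**Figure D4:**
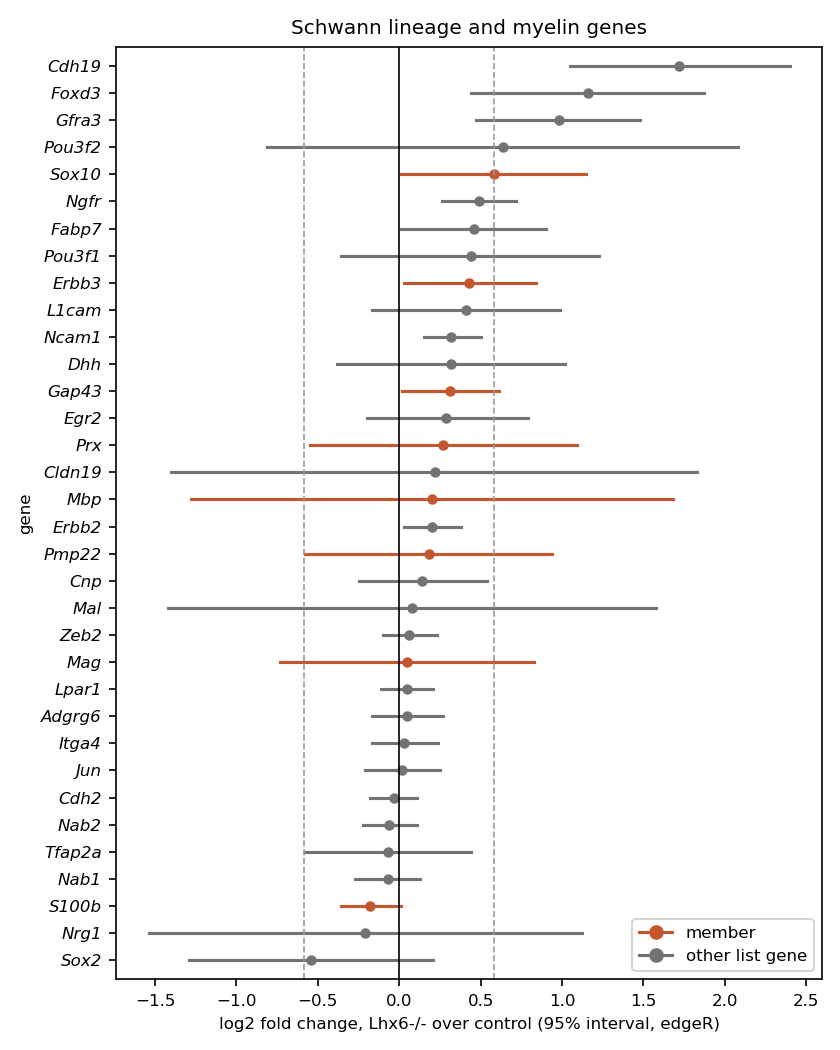
Log2 fold change of Lhx6-/- over control (horizontal axis) with its 95% interval from edgeR for the members (orange) and other genes of the Schwann lineage and myelin lists (grey), ordered by size. The Schwann lineage list is shown in full. Of the other myelin list genes only Cnp, Mal and Cldn19 are drawn, and Sh3tc2, Lama2, Nfasc and Arhgef10 are not. Dashed lines mark a 1.5-fold change in either direction. Cdh19, Foxd3 and Gfra3 lie beyond the line with intervals clear of 0, and Mbp, Cldn19 and Mal have intervals reaching far on both sides of 0.

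The 28 myelin and myelin assembly genes listed, 4 of them members, were all tested, with 24 higher, 4 lower and 0.19 as the median log2 fold change. The 1 gene called was Sh3tc2, an endosomal adaptor of myelinating Schwann cells, at 1.74, 2.93 and 1.81 CPM in controls and 3.13, 2.70 and 3.95 CPM in mutants. Its groups overlapped, and its log2 fold change was 0.59 (edgeR adjusted p = 0.495). The call was lost without control replicate 1 or 3 (0.46 and 0.48) and without Lhx6-/- replicate 1 or 3 (0.62 and 0.43), and also with the replicate number as a block (0.62). At an unadjusted edgeR p under 0.05 there were 4 genes, all higher, which besides Sh3tc2 were the laminin gene Lama2 (log2 fold change 0.44), the node protein Nfasc (0.30) and the exchange factor Arhgef10 (0.20). Among all genes tested, 1.58% were called higher and 4.75% were higher at that p. Lama2 is made by many mesenchymal cells. Cldn19 had a log2 fold change of 0.22 (edgeR adjusted p = 0.956) and Mal 0.08 (edgeR adjusted p = 0.985), and the enzyme Cnp, found in the uncompacted parts of myelin, had 0.14 (edgeR adjusted p = 0.876). The peripheral myelin lipid carrier Pmp2 had 0.24 (edgeR adjusted p = 0.911), and the gap junction gene Gjb1 was low, at 0.129 to 0.344 CPM over the 6 libraries.

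Markers of neurons and their axons, which Schwann cells accompany, were more often lower than higher. These values are RNA levels in the captured tissue, and the number of axons was not measured. Of 26 marker genes listed 19 were tested, 6 higher and 13 lower (median -0.12 in log2 fold change). There were 4 called, all lower, where 1.71% of all genes tested were called lower. The genes called were sparse, with means from 0.256 CPM (Nefm) to 1.56 CPM (Th) over the 6 libraries. Nefm, a neurofilament, was at 24, 32 and 25 rounded counts in controls and 3, 4 and 11 in mutants, a log2 fold change of -2.32 (SE 0.74, edgeR adjusted p = 0.293). Th, the enzyme that makes catecholamines in sympathetic axons, was at 1.83, 2.99 and 1.78 CPM in controls and 0.917, 0.698 and 1.16 CPM in mutants (log2 fold change -1.25, edgeR adjusted p = 0.193, DESeq2 adjusted p = 0.036). Rbfox3, a splicing factor of neuronal nuclei, had a log2 fold change of -0.74 (edgeR adjusted p = 0.475). Its call was lost without control replicate 1 or 3 and without Lhx6-/- replicate 1 or 3, where the log2 fold change lay between -0.80 and -0.59. The call of Rbfox3 was also lost with the replicate number as a block (-0.75). For the synaptic gene Snap25, with a log2 fold change of -1.31 (edgeR adjusted p = 0.473), control replicate 2 at 2.66 CPM stood far above the other controls at 0.739 and 0.693 CPM. Without it the value was -0.37 (edgeR adjusted p = 0.897), and the call was also lost without Lhx6-/- replicate 2 (-1.34, edgeR adjusted p = 0.831) or 3 (-1.06, edgeR adjusted p = 0.63). It was lost as well in limma-trend (-1.03 and -1.06 at prior counts of 2 and 0.5) and limma voom (-0.90). The tubulin gene Tubb3 was lower in every mutant, at 23.7 to 24.4 CPM in controls and 16.4 to 20.3 CPM in mutants (log2 fold change -0.35, edgeR adjusted p = 0.222). Stmn2 (log2 fold change -0.12, edgeR adjusted p = 0.911), Prph (0.60, edgeR adjusted p = 0.678) and the sparse Nefl (-0.13, edgeR adjusted p = 0.986) did not pass. Among the higher genes, Mapt, the most abundant of the list at a mean of 49.6 CPM, had a log2 fold change of 0.34. Scn9a had 1.06 and Syp 0.58. The summed level of the list was 118 to 135 CPM in controls and 119 to 138 CPM in mutants, and Gap43 was its single gene with an unadjusted edgeR p under 0.05 in the higher direction.

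Markers of other cells of the captured region were set beside these values. Of all genes tested, 1.58% were called higher and 1.71% lower, and 7.86% were higher and 7.68% lower without overlap. The 15 endothelial genes tested were all higher in Lhx6-/- tissue, with 0.24 as their median log2 fold change, a summed level of 518 to 537 CPM in controls and 588 to 668 CPM in mutants, and 9 without overlap. One of them was called, Cldn5, at 13.6, 15.6 and 15.0 CPM in controls and 24.0, 22.8 and 21.8 CPM in mutants (log2 fold change 0.64, edgeR adjusted p = 0.014), while Pecam1 had 0.24 and Cdh5 0.37, and 2 were called without control replicate 3 or without Lhx6-/- replicate 3. Of the 15 genes of dental epithelium and enamel 14 were lower, with a median of -0.36 and sums of 137000 to 146000 CPM and 116000 to 147000 CPM, and 4 were called lower, Krt14, Krt5, Dsc3 and Dsp. Their edgeR adjusted p was 0.116, 0.214, 0.316 and 0.179 in that order. In edgeR 1 gene of the list had an adjusted p under 0.05, Amtn, which was below the 1.5-fold mark (log2 fold change -0.54). Without control replicate 2, 0 genes of the list were called, and the log2 fold changes of Krt14, Krt5 and Dsp were between -0.50 and -0.43 and that of Dsc3 was -0.58. Krt14 was also below the mark without Lhx6-/- replicate 1 (-0.57), and Dsc3 was not called without Lhx6-/- replicate 3 (-0.74). Of 11 cartilage genes tested 4 were called higher, Col9a1 (log2 fold change 2.39), Cnmd (2.38), Col9a2 (1.13) and Hapln1 (0.65, and 0.55 without Lhx6-/- replicate 1), while Col2a1 had -0.35 and Acan 0.01, and the list sum was 2690 to 3340 CPM in controls and 2880 to 3090 CPM in mutants. The edgeR adjusted p was 0.00576 for Col9a1, 0.219 for Cnmd, 0.116 for Col9a2 and 0.136 for Hapln1. DESeq2 gave these 4 an adjusted p under 0.05, and limma-trend and limma voom gave one to Col9a1 and Col9a2. DESeq2 also gave one to Cdh5, Cldn5 and Erg of the endothelial list and to Amtn, Cldn1, Dsp and Krt14 of the epithelial list.

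Lists for cells that neighbour Schwann cells by lineage or position held calls in both directions, where 1.58% of all genes tested were called higher and 1.71% lower. Among 12 genes of perineurium and endoneurial fibroblasts 1 was called, Osr2, which dental mesenchyme also expresses (log2 fold change 0.96, edgeR adjusted p = 0.00484), and the list sum was 581 to 651 CPM in controls and 619 to 638 CPM in mutants. Melanocytes are another neural crest lineage that uses Sox10. Of 4 of their genes tested Dct was called lower (log2 fold change -1.20, edgeR adjusted p = 0.176, DESeq2 adjusted p = 0.0185). Dct was at 4.19, 2.81 and 3.53 CPM in controls and 2.29, 1.17 and 1.16 CPM in mutants. Mitf had a log2 fold change of -0.27 and Pmel 0.19. The sum of that list was 31.3 to 34.1 CPM in controls and 26.8 to 29.7 CPM in mutants, and its defining genes Tyr, Tyrp1 and Mlana were not analysed here. The lists for oligodendrocytes and central glia (8 tested), dental mesenchyme (15), muscle (12) and immune cells (12) had 0 genes called, but the first had 1 without control replicate 2 and the last had 1 without control replicate 1 or Lhx6-/- replicate 1. Their sums in controls and mutants were 261 to 287 and 310 to 325 CPM (mostly Pdgfra, which mesenchyme also expresses), 96100 to 121000 and 111000 to 120000 CPM, 1820 to 2450 and 1860 to 2920 CPM, and 443 to 465 and 398 to 452 CPM. Of the dental mesenchyme genes 12 were higher, 8 higher and 1 lower without overlap, and 6 higher and 1 lower at an unadjusted edgeR p under 0.05, with a median log2 fold change of 0.17. DESeq2 gave 4 of them an adjusted p under 0.05, Col3a1, Pax9, Pdgfra and Pdgfrb, and edgeR 0. Of the immune genes 10 were lower, 3 of them without overlap and 3 at an unadjusted edgeR p under 0.05, with a median of -0.16. The shares without overlap over all genes tested were 7.86% higher and 7.68% lower. At that p they were 4.75% higher and 5.07% lower. Of the muscle genes 8 were higher (median 0.10), and the oligodendrocyte list had a median of -0.04. The part that these other cells have in the values of the 8 genes was not tested.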

How the data were processed

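Laser-captured apical furcation tissue of 3 control and 3 Lhx6-/- pools was sequenced as single-end reads. Per the labels and the study's methods, trimmed reads were mapped by the authors to the mm10 genome (STAR 2.6.1d), within Partek. The gene counter, its annotation and its use of strand are not given in the sources used here. The deposited values used are estimated counts per gene (not always whole), rounded here to whole numbers. A second deposited table gives gene names and positions together with normalised group means, a score used only to check that both tables list genes in the same order. The largest relative deviation was 8.56e-08. Its columns of the authors' own comparison (fold changes and p-values) were not used.

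Counts were filtered with filterByExpr, scaled by TMM and fitted with edgeR 4.0.16 (robust quasi-likelihood test, R 4.3.3, no covariate, Benjamini-Hochberg adjustment over 20114 genes). A call needed a 1.5-fold change and an unadjusted p under 0.05. Log2 CPM used a prior count of 2. Levels per kilobase used the summed exon length of each gene in GENCODE vM21, in which 7 of the 8 members had the position given in the deposited table. Relations between genes used exact two-sided permutation tests. A single gene compared by permutation of 3 against 3 libraries could not go below p = 0.1, so the fits across all genes were used. The fitting script was tested on simulated data with known changes. Library totals of 60132323 to 76157433 limit precision mainly for genes under 1 CPM, and counts cover counting error only.

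The members and the gene lists were chosen with earlier results of these data known. Genes named in the text are the members, Lhx6, the genes called in each list, a fixed set of defining markers and the 5 genes most like Sox10. Cldn19, Ncam1, Fabp7, Lama2, Nfasc, Arhgef10, Xist, Kdm5d, Amtn, Cldn1, Erg, Col3a1, Pax9, Pdgfra, Pdgfrb, Dcn, Col9a3, Mapt, Scn9a and Syp were added after their values were seen. Tyrp1 and Mlana, of the melanocyte list, are named without values. Alternatives were DESeq2 1.42.0, limma 3.58.1 (trend, and voom with sample weights), other scalings, filters and thresholds, a non-robust fit, a replicate block and each library left out. Some genes of the lists are not reported here and are left out of the list counts.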

Additional observations from a re-analysis of the deposited data

How the results depend on the processing

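The count of members called was 0 and became 1 with upper-quartile factors and with total-count scaling, where Sox10 passed the fold mark, and 0 to 1 with each library left out (Erbb3 without control replicate 2, Sox10 without Lhx6-/- replicate 2). Libraries with the same replicate number in the sample titles did not deviate together: deviations from the group means correlated at 0.026, -0.029 and -0.031. The study's methods speak of 3 pairs of samples, but the sources used here do not say which libraries pair. The deposited library names number the mutants differently from the titles. The block used the title numbers, and no block with other pairs was fitted. With the replicate block 0 members were called, the myelin list went from 1 to 0 (Sh3tc2 at a log2 fold change of 0.62, beside 0.59 without the block) and the log2 fold change of the sparse Nefl went from -0.13 to 0.50. The myelin count was also 0 at an edgeR adjusted p under 0.05 (1 by DESeq2, Lama2) and with a 2-fold threshold, and 0 to 1 with each library left out. The Schwann lineage count of 3 was 1 at an edgeR adjusted p under 0.05 (4 by DESeq2, Cdh19, Ngfr, Ncam1 and Gfra3) and 3 to 5 with each library left out. The neuron and axon count of 4 was 0 at an edgeR adjusted p under 0.05 (1 by DESeq2, Th). At the call thresholds it was 6 by DESeq2, 5 without a filter on low counts and 3 with at least 10 counts in every library. With each library left out, log2 fold changes ran from -0.09 to 0.58 for Mbp, -0.24 to 0.34 for Mag, -0.01 to 0.39 for Pmp22, -0.05 to 0.62 for Pmp2, -0.33 to 0.41 for Mal, -0.12 to 0.62 for Cldn19, -0.61 to 0.34 for Nrg1, -0.71 to 1.09 for Nefl, -0.63 to 0.04 for Gfap, -0.05 to 0.37 for Pmel and -0.04 to 0.11 for Acan. Nefl, at 0 in control replicate 1, was also positive with limma-trend at prior counts of 2 and 0.5 (0.49 and 1.05) and limma voom (1.19). The cause of these changes was not tested. Sox10, Erbb3, Gap43 and Prx stayed positive and S100b negative under all 16 alternatives, with log2 fold changes of 0.37 to 0.85, 0.29 to 0.65, 0.20 to 0.37, 0.08 to 0.51 and -0.22 to -0.15, and no adjusted p was under 0.05.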
